A study of Mus musculus with 6 samples.

Results

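The glycolysis and hypoxia response genes described here are 36 genes of the deposited table, picked by symbol: the hypoxia-inducible factor (HIF) genes and their oxygen sensors (5 genes), the glycolytic enzymes (16 genes), glucose and lactate transport with the switches of glycolytic flux (5 genes) and other genes induced by hypoxia (10 genes). The table lists 21367 genes, and 13036 passed the filter on low counts, all 36 members among them. The symbol *Aldoa* stood on a second Ensembl identifier, ENSMUSG00000114515, which held 0.2 counts over the 6 libraries and was not tested. The study sequenced poly(A) RNA of whole left kidneys from 3 *Ptpn6*+/mev and 3 wild-type littermate mice on a C57BL/6 background, 7 weeks old. Every mouse lost its right kidney, had the left renal pedicle clamped for 34 min and was sampled at 24 h of reperfusion, so both groups carry ischemia-reperfusion injury (IRI) and no uninjured kidney was analysed here. *Ptpn6* encodes the tyrosine phosphatase SHP-1, and mev is a splice site mutation of it that all cells of these mice carry in 1 copy, although the labels call the genotype a SHP1 knockdown. The question here was how the genotype relates to the glycolytic and hypoxia programme of the injured kidney.

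HIF is a transcription factor made of an oxygen-sensitive alpha subunit and a stable partner. With oxygen present, prolyl hydroxylases mark the alpha subunit, the VHL protein recognizes the mark and the subunit is destroyed; without oxygen it persists and switches on genes for glycolysis, vessel growth, mitophagy and adaptation to low oxygen. The healthy proximal tubule lives mainly on oxidation of fatty acids and makes glucose rather than burning it, while the distal nephron and injured tubules rely more on glycolysis.

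None of the 36 genes passed an FDR under 0.05 between genotypes in edgeR's quasi-likelihood test adjusted over all 13036 genes, where 18 genes, 0.138%, passed. At an unadjusted p under 0.05 there were 5 members, *Eno1*, *Vegfa*, *Bnip3*, *Egln3* and *Pfkl*, and in each the mean of the *Ptpn6*+/mev mice lay below that of the wild-type mice. The background at this threshold was 12.2% of all genes tested, 6.71% lower and 5.53% higher in *Ptpn6*+/mev mice. A negative log2 fold change was found for 20 members, against 50.5% of all genes. The median log2 fold change of the 36, always given as *Ptpn6*+/mev over wild-type, was -0.02, against -0.00 over all genes tested, and 18 members had a log2 fold change within 0.1 of 0. Levels of the groups did not overlap in 9 members, 4 with all *Ptpn6*+/mev values below and 5 with all above, where levels are FPKM, fragments scaled to transcript length and library size, which can be compared between genes. Among all genes tested 20.4% did not overlap in FPKM, 6.38% with *Ptpn6*+/mev below and 14.0% with *Ptpn6*+/mev above. After TMM normalization, which corrects library sizes for composition, 9 members again did not overlap, 8 below and 1 above, against 9.8% and 9.64% of all genes. The same direction was found on both scales in 5 members, *Egln1*, *Egln3*, *Eno1*, *Bnip3* and *Vegfa*.

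Total counts ranged from 10271590 to 12361745 per library. The library of wild-type mouse 2 stood apart: it had the lowest value of 42.8% of all genes tested and a TMM factor of 0.929, against 0.994 to 1.03 in the other libraries. In this library the summed FPKM of 7 endothelial markers was 97.9, against 245 to 274 elsewhere, and that of 8 macrophage markers 113, against 175 to 278. Without it 231 genes, 1.77%, passed the FDR threshold, and still none of the 36, with 4 members above and 4 below at an unadjusted p under 0.05, where 9.17% and 8.13% of all genes lay above and below. *Ptpn6* itself had FPKM values of 11.9, 14.7 and 13.6 in *Ptpn6*+/mev and 17.5, 10.9 and 15.4 in wild-type mice, which overlap. Its log2 fold change was -0.19 (SE 0.17, edgeR adjusted p = 0.715) and -0.33 without wild-type mouse 2 (edgeR adjusted p = 0.212). With each library left out in turn it lay between -0.33 and -0.05. The level of a transcript with a splice mutation does not check the label. Markers of proximal tubule were also unequal: 9 of 10 had a negative log2 fold change and 6 an unadjusted p under 0.05. None of them passed after adjustment in the 6-library edgeR fit, while 4 passed in the exact test, 4 in DESeq2 and 5 without wild-type mouse 2, each of these lower in *Ptpn6*+/mev mice. Their summed FPKM was 2772 to 3619 in *Ptpn6*+/mev and 2418 to 10987 in wild-type mice, the highest value being that of mouse 2, and 582 to 737 against 786 to 1000.2 when *Kap* was left out. Of 8 markers of the distal nephron, 6 had a negative log2 fold change, with 1 lower and 1 higher at an unadjusted p under 0.05. None of these passed after adjustment in the 6-library edgeR fit, the exact test, DESeq2 or without wild-type mouse 2. Their summed FPKM overlapped, at 2074 to 3020 in *Ptpn6*+/mev and 2530 to 2968 in wild-type mice. Of 9 markers of tubular injury, 4 were higher and 1 lower in *Ptpn6*+/mev mice at an unadjusted p under 0.05. None passed after adjustment in the same fit, 1 did in the exact test, 2 in DESeq2 and 2 without wild-type mouse 2, all higher. No marker was at 0 in all libraries. In RNA of a whole kidney, fewer cells of a type and less RNA per cell cannot be told apart.

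**Figure D1:**
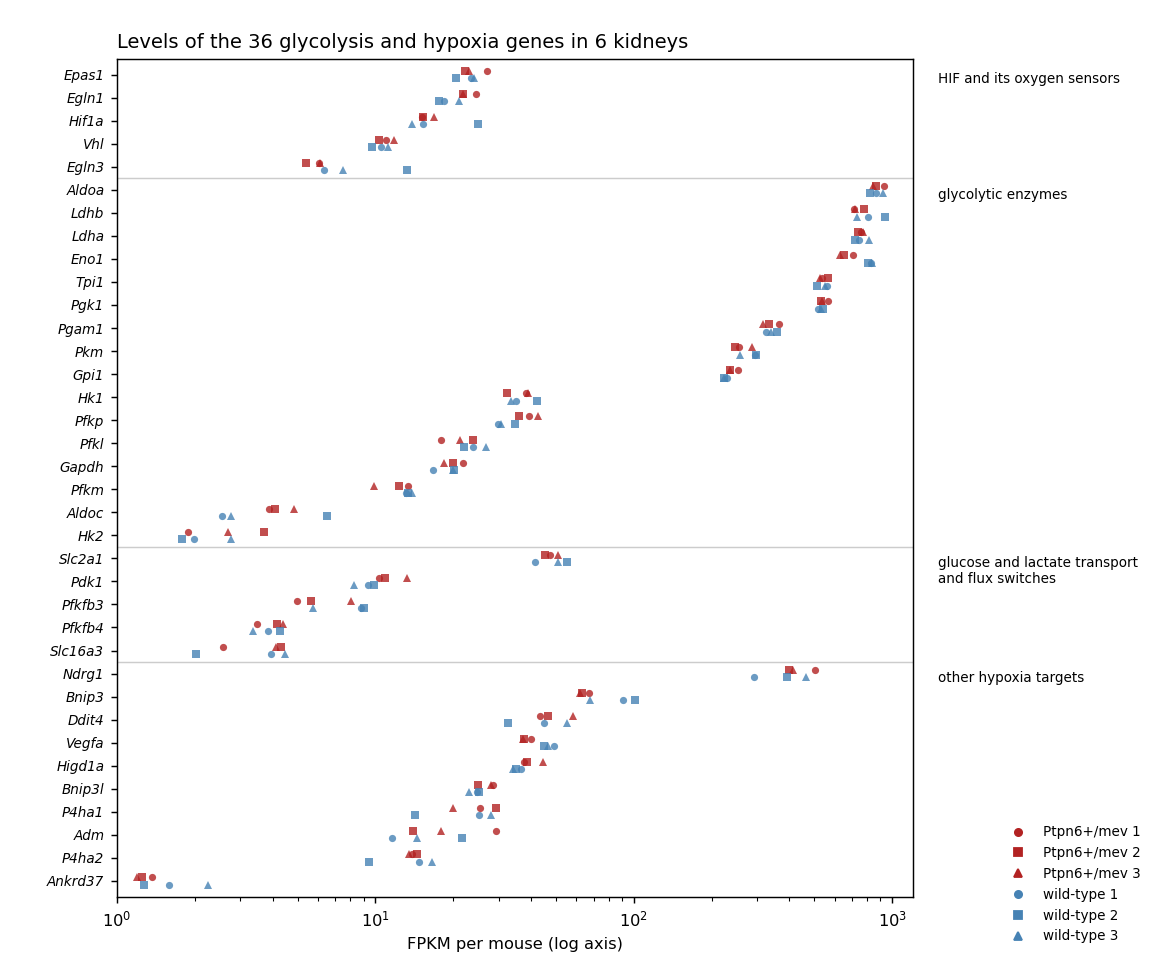
FPKM of the 36 genes in each of the 6 kidneys on a log axis, grouped by role and ordered by mean level within a role; red symbols are Ptpn6+/mev and blue symbols wild-type mice, and the symbol shape gives the replicate number. The abundant glycolytic enzymes lie between 223 and 942 FPKM. There Eno1 separates the genotypes with Ptpn6+/mev lower, and Gpi1, by a narrower margin, with Ptpn6+/mev higher. The blue square of wild-type mouse 2 lies apart in Hif1a, Egln3 and Aldoc.

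Promoter sequences are shown for the 4 genes with an unadjusted p under 0.05 whose groups did not overlap on either scale, since HIF binds DNA at a core of ACGTG or GCGTG. These letters were searched on both strands, so that CACGT and CACGC count as well, and the palindrome CACGTG is read on both strands. The sequences are from RefSeq on GRCm38.p6, 5′ to 3′ on the strand of the gene and 250 bases long, ending at the base before the most upstream annotated transcript start. Capitals mark the matches. Of the 36 genes, 33 had an entry of this kind.
Eno1: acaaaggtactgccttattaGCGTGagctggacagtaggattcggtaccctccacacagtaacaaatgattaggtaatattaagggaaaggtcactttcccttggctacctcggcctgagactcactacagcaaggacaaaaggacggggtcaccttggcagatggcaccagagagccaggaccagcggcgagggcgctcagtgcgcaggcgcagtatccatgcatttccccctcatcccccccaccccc
Bnip3: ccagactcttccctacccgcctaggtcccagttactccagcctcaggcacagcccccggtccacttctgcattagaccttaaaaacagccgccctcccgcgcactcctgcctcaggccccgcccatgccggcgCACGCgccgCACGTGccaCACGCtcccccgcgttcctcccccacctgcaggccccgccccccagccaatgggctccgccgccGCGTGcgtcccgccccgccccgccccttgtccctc
Egln3: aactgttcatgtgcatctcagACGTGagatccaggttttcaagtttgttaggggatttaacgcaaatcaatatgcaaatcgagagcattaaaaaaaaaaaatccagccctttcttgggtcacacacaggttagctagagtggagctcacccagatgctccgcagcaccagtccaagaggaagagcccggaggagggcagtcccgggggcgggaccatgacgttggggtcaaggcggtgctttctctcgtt
Vegfa: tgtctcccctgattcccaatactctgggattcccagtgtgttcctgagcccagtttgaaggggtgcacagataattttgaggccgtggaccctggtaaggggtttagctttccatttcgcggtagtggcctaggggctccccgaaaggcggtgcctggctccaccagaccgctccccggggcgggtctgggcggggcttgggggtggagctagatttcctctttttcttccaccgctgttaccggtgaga
The *Eno1* sequence is chr4:150236458-150236707 on the plus strand and holds 1 match, 230 bases before the start. That of *Bnip3*, chr7:138909507-138909756 on the minus strand, holds 5 matches in 4 separate places, between 117 and 35 bases before the start. The *Egln3* sequence, chr12:54203875-54204124 on the minus strand, has 1 match 229 bases before the start. In the *Vegfa* sequence, chr17:46032378-46032627 on the minus strand, these letters do not occur. In windows of 300 bases, 250 before to 50 after each start, the letters occurred in 38 of the 47 windows of members, 80.9%. They occurred in 60.5% of the windows of all genes tested. Over all 32851 promoter windows read, not selected by gene, the share was 43.8%. The share was 77.8% of 27 windows of enzymes and 88.9% of 9 windows of the other targets. A gene with several annotated starts enters with several windows, 3 for *Eno1* and 2 for *Vegfa*. These are therefore shares of windows and not of genes. A match is a description of letters in the window and not a binding site.

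The HIF subunits and their sensors were expressed at 5.38 to 26.9 FPKM. *Hif1a*, the oxygen-sensitive subunit found in most cells, had 15.1, 15.2 and 16.9 FPKM in *Ptpn6*+/mev and 15.3, 24.9 and 13.8 in wild-type mice. The groups overlapped, and wild-type mouse 2 alone lay above the *Ptpn6*+/mev mice. Its log2 fold change was -0.27 (SE 0.23, edgeR adjusted p = 0.707) and 0.08 without that mouse. *Epas1*, which encodes HIF-2 alpha, known from endothelium and from the interstitial cells that make erythropoietin, had a log2 fold change of 0.02 with a 95% interval of -0.21 to 0.25. *Vhl*, the recognition subunit of the ubiquitin ligase, had 0.01 (-0.23 to 0.25).

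Of the prolyl hydroxylases that mark HIF, *Egln1* and *Egln3* are members. *Egln1*, which encodes PHD2, the main oxygen sensor under normal oxygen, had 24.5, 21.9 and 21.8 FPKM in *Ptpn6*+/mev and 18.4, 17.6 and 21.1 FPKM in wild-type mice. Each *Ptpn6*+/mev value lay above each wild-type value, by a narrow margin for wild-type mouse 3. *Egln1* had a log2 fold change of 0.19 (SE 0.10, unadjusted 95% interval -0.03 to 0.41, edgeR adjusted p = 0.489). *Egln3*, which encodes PHD3 and is itself a HIF target (ENSMUSG00000035105, chr12:54178981-54203860), had 6.05, 5.38 and 6.12 FPKM in *Ptpn6*+/mev and 6.32, 13.2 and 7.51 FPKM in wild-type mice. All *Ptpn6*+/mev values were the lower ones, but wild-type mice 1 and 3 lay close to them and mouse 2 far above. The log2 fold change was -0.71 (SE 0.29, edgeR adjusted p = 0.37) and -0.27 without wild-type mouse 2 (edgeR adjusted p = 0.368), so that library sets most of its size. *Egln2*, the related hydroxylase PHD1, is not a member and overlapped at 48.7 to 51.4 FPKM against 42.2 to 51.0 FPKM.

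The glycolytic enzymes are reported apart from the other targets. As a group they differed little: 12 of 16 had a negative and 4 a positive log2 fold change, the median was -0.08, and 9 lay within 0.1 of 0. Without wild-type mouse 2 they were 10 negative and 6 positive with a median of -0.02, and with limma on log2(FPKM + 0.1) 9 and 7 with a median of -0.00. In that limma fit 4733 of all 13036 genes tested were negative, and their median was 0.08. In the plot of differences between genotypes, the intervals of 14 of the 16 enzymes include 0. Together the 16 transcripts made up 0.944%, 0.897% and 0.888% of the summed FPKM in *Ptpn6*+/mev and 0.936%, 0.946% and 0.966% in wild-type mice, which overlap. Replicates were close, with a median coefficient of variation of 7.81% in *Ptpn6*+/mev and 7.00% in wild-type mice, against 10.4% and 14.7% over all genes tested. Without wild-type mouse 2 the wild-type medians were 3.97% for the enzymes and 7.65% over all genes tested.

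**Figure D2:**
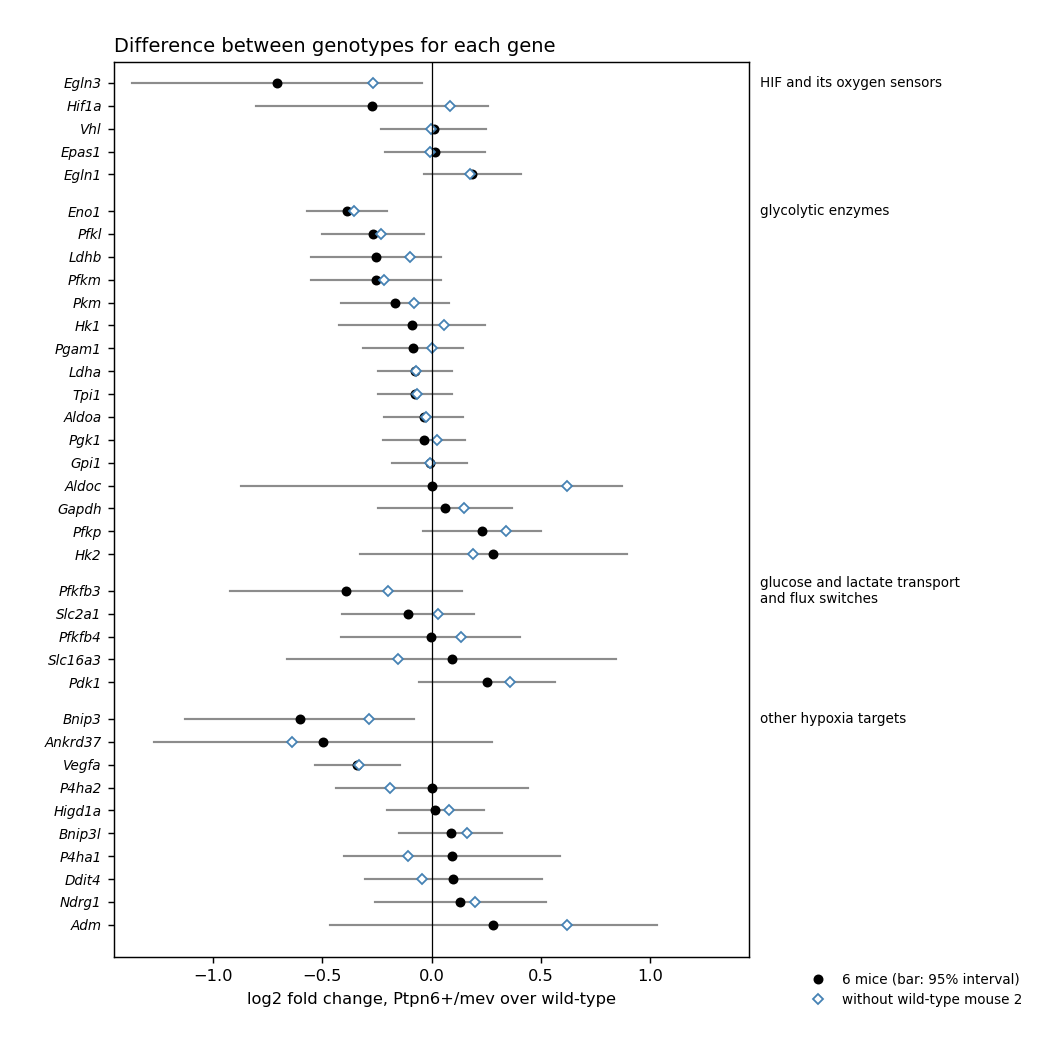
Log2 fold change of Ptpn6+/mev over wild-type for the 36 genes, with points for the edgeR fit of all 6 mice, bars for its unadjusted 95% intervals and open diamonds for the fit without wild-type mouse 2. The intervals of Eno1, Pfkl, Vegfa, Bnip3 and Egln3 lie below 0, and the diamonds of Egln3 and Bnip3 lie nearer to 0 than their points.

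*Eno1* carried the clearest difference of the enzymes. It encodes alpha-enolase, which forms phosphoenolpyruvate, and lies at chr4:150236721-150248879 (ENSMUSG00000063524). Its FPKM was 708, 654 and 630 in *Ptpn6*+/mev and 829, 809 and 839 in wild-type mice. The groups stood apart by more than their spread, at 664 ± 40.0 against 826 ± 15.3 (SD, n = 3 each), and wild-type mouse 2 lay with the other wild-type mice. The log2 fold change was -0.38 (SE 0.08, 95% interval -0.57 to -0.20), with an adjusted p of 0.105 in edgeR's quasi-likelihood test. It stayed between -0.43 and -0.35 when each library was left out in turn, with edgeR adjusted p-values of 0.0579 to 0.497. Other tests gave adjusted p-values of 0.0537 (edgeR, exact) and 0.00309 (DESeq2). Some of its reads were divided between genes, since the counts are not whole, but *Eno1b*, a near-identical copy, was listed at only 0.09 to 0.70 FPKM.

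The enzymes of the upper part of the pathway included the phosphofructokinase isozymes, which catalyze the committed step. The liver-type *Pfkl* (ENSMUSG00000020277, chr10:77986947-78010083) had 18.0, 23.9 and 21.2 FPKM in *Ptpn6*+/mev and 24.0, 22.0 and 26.7 FPKM in wild-type mice. These FPKM values overlap, while the TMM-normalized values did not. Its log2 fold change was -0.27 (SE 0.10, 95% interval -0.50 to -0.03, edgeR adjusted p = 0.331). The muscle-type *Pfkm* had 13.3, 12.3 and 9.87 FPKM against 13.2, 13.3 and 13.8 FPKM, overlapping in FPKM but not after TMM normalization, and a log2 fold change of -0.25 (SE 0.13). With each library left out in turn that value lay between -0.35 and -0.14. The platelet-type *Pfkp* had 39.2, 35.8 and 42.6 FPKM in *Ptpn6*+/mev and 29.8, 34.7 and 30.7 FPKM in wild-type mice. Here the *Ptpn6*+/mev values were the higher ones in FPKM, although they overlapped after TMM normalization, with a log2 fold change of 0.23 (SE 0.12, edgeR adjusted p = 0.48). Hexokinases trap glucose in the cell. *Hk1* had 32.3 to 38.8 FPKM against 33.4 to 42.2 FPKM, and the inducible *Hk2* was low, at 1.88 to 3.72 against 1.78 to 2.75 FPKM, with a log2 fold change of 0.28 and an interval of -0.33 to 0.89. Its value was 0.01 without *Ptpn6*+/mev mouse 2 and 0.50 without *Ptpn6*+/mev mouse 1. *Gpi1*, glucose-6-phosphate isomerase, had 254, 235 and 236 FPKM against 230, 223 and 224. Its FPKM groups did not overlap but its TMM-normalized values did, and its log2 fold change was -0.01 (95% interval -0.18 to 0.16).

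Further down the pathway, *Aldoa*, *Tpi1*, *Pgk1*, *Pgam1* and *Ldha* had log2 fold changes within 0.1 of 0. *Aldoa*, the aldolase with the highest level of the members, had 932, 869 and 845 FPKM in *Ptpn6*+/mev and 865, 823 and 924 FPKM in wild-type mice. The values are interleaved, and the log2 fold change was -0.04 (95% interval -0.22 to 0.15). *Tpi1*, triose phosphate isomerase, had a log2 fold change of -0.07 (-0.25 to 0.10), *Pgk1*, which makes the first ATP of glycolysis, -0.03 (-0.22 to 0.15), and *Pgam1*, phosphoglycerate mutase, -0.08 (-0.31 to 0.14). Without wild-type mouse 2 the log2 fold change of *Pgam1* was -0.0004. *Ldha*, the lactate dehydrogenase subunit that favors lactate and is induced by HIF, had 759, 740 and 770 FPKM in *Ptpn6*+/mev against 744, 718 and 814 in wild-type mice. These FPKM values overlap, whereas after TMM normalization all *Ptpn6*+/mev values were the lower ones, with a log2 fold change of -0.08 (95% interval -0.24 to 0.09). *Ldhb*, the heart-type subunit, had 712, 778 and 716 FPKM against 806, 942 and 733 FPKM, where wild-type mouse 2 was the highest, and its log2 fold change of -0.25 (SE 0.13, edgeR adjusted p = 0.483) was -0.10 without that mouse. *Pkm*, the pyruvate kinase of most tissues outside the liver, had 255, 246 and 288 FPKM against 293, 296 and 258 FPKM and a log2 fold change of -0.17 (SE 0.11). This value ran from -0.25 to -0.08 with each library left out, -0.08 being without wild-type mouse 2.

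*Aldoc* and *Gapdh* were low for the pathway. *Aldoc*, an aldolase best known from brain, had 3.88, 4.07 and 4.84 FPKM in *Ptpn6*+/mev and 2.54, 6.47 and 2.76 FPKM in wild-type mice. Wild-type mouse 2 was the highest and the other wild-type mice the lowest of the 6, and the log2 fold change was 0.00 (SE 0.38) with that mouse and 0.62 without it (edgeR adjusted p = 0.157). *Gapdh*, the dehydrogenase between triose phosphate isomerase and *Pgk1*, was listed at 16.7 to 21.9 FPKM, while *Tpi1* and *Pgk1* were at 514 to 566 FPKM. Its counts are not whole and the mouse genome holds many near-identical copies of this gene, so its level is uncertain. Its log2 fold change was 0.06 (95% interval -0.24 to 0.37).

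Of the 5 genes of transport and flux control none had an unadjusted p under 0.05, and the median log2 fold change was -0.00. *Slc2a1*, the glucose transporter GLUT1, was the most abundant, with 47.5, 45.4 and 51.0 FPKM in *Ptpn6*+/mev and 41.5, 55.2 and 50.7 FPKM in wild-type mice. The groups overlap, with a log2 fold change of -0.11 (SE 0.13). *Pdk1*, a mitochondrial kinase that inhibits pyruvate dehydrogenase, had 10.3, 10.9 and 13.3 FPKM in *Ptpn6*+/mev and 9.34, 9.87 and 8.27 FPKM in wild-type mice. Its *Ptpn6*+/mev values were all above the wild-type values in FPKM, yet overlapped after TMM normalization. Its log2 fold change was 0.25 (SE 0.13, edgeR adjusted p = 0.508) and 0.36 without wild-type mouse 2 (edgeR adjusted p = 0.184). With each library left out in turn it lay between 0.14 and 0.36. *Pfkfb3*, which makes the activator of phosphofructokinase, had 4.96 to 8.08 FPKM against 5.76 to 9.04 FPKM and a log2 fold change of -0.39 (SE 0.23). This value ran from -0.60 to -0.20 with each library left out, -0.20 being without wild-type mouse 2. *Pfkfb4*, a related enzyme, and *Slc16a3*, the lactate exporter MCT4, overlapped at 2.03 to 4.47 FPKM, with log2 fold changes of -0.00 and 0.09.

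The 10 other hypoxia targets were split, 7 with a positive and 3 with a negative log2 fold change and a median of 0.05, and without wild-type mouse 2 they were 4 and 6 with a median of -0.08. Their wild-type values were scattered, with a median coefficient of variation of 23.9%, or 11.2% without that mouse, against 8.36% in *Ptpn6*+/mev mice. *Vegfa*, the main growth factor for vessels, made in the kidney by podocytes and tubules (ENSMUSG00000023951, chr17:46016993-46032369), had 40.0, 37.5 and 37.1 FPKM in *Ptpn6*+/mev and 49.1, 44.9 and 46.6 FPKM in wild-type mice. The groups stood apart by more than their spread, at 38.2 ± 1.58 against 46.9 ± 2.10 (SD, n = 3 each). The log2 fold change was -0.34 (SE 0.08, 95% interval -0.53 to -0.14), with adjusted p-values of 0.16 (edgeR, quasi-likelihood), 0.117 (edgeR, exact) and 0.0397 (DESeq2). With each library left out in turn it lay between -0.38 and -0.31. The summed FPKM of 5 podocyte markers, 119 to 152 in *Ptpn6*+/mev and 84.9 to 130.2 in wild-type mice, overlapped between the genotypes.

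*Bnip3*, a mitochondrial protein that marks mitochondria for removal (ENSMUSG00000078566, chr7:138890836-138909519), had 67.0, 63.3 and 61.7 FPKM in *Ptpn6*+/mev and 91.2, 101 and 67.8 FPKM in wild-type mice. The *Ptpn6*+/mev values were close together at 64.0 ± 2.72 (SD, n = 3) and the wild-type values wide at 86.7 ± 17.1 (SD, n = 3), with wild-type mouse 3 just above the *Ptpn6*+/mev mice. The log2 fold change was -0.60 (SE 0.23, 95% interval -1.13 to -0.08, edgeR adjusted p = 0.331) and -0.28 without wild-type mouse 2 (edgeR adjusted p = 0.286). Its relative *Bnip3l*, or NIX, which serves mitophagy as well, had 28.7, 24.9 and 28.1 FPKM against 24.6, 25.3 and 23.1 FPKM, overlapping, and a log2 fold change of 0.09 (95% interval -0.15 to 0.32).

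**Figure D3:**
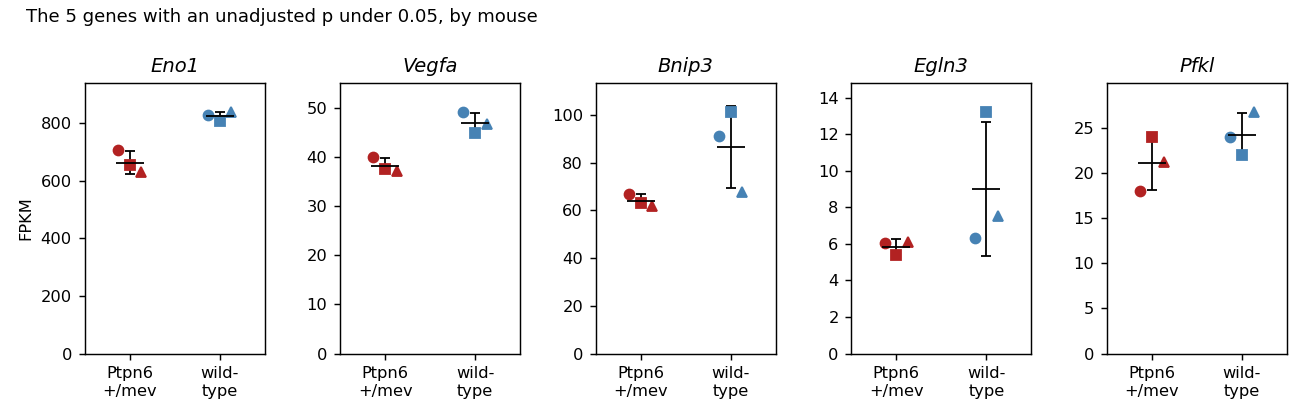
FPKM per mouse of Eno1, Vegfa, Bnip3, Egln3 and Pfkl, the members with an unadjusted p under 0.05, on axes that start at 0; points are mice with the shapes of replicates 1 (circle), 2 (square) and 3 (triangle), horizontal lines are means and bars are SD (n = 3). Eno1 and Vegfa separate with narrow spread, Bnip3 and Egln3 have a high wild-type mouse 2, and Pfkl overlaps.

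*Higd1a*, a small mitochondrial protein, had 37.5, 38.6 and 44.4 FPKM in *Ptpn6*+/mev and 36.8, 34.9 and 34.0 FPKM in wild-type mice. The *Ptpn6*+/mev values were all the higher ones in FPKM and overlapped after TMM normalization, where the log2 fold change was 0.02 (95% interval -0.21 to 0.24). *Ndrg1*, a stress-induced gene and the most abundant target, had 501, 399 and 414 FPKM against 292, 392 and 464 FPKM, with a log2 fold change of 0.13 (95% interval -0.26 to 0.52). *Adm*, which encodes the vasodilator peptide adrenomedullin, had 29.3, 14.0 and 18.0 FPKM against 11.6, 21.6 and 14.5 FPKM. Both genotypes contained a high mouse, and the log2 fold change of 0.28 (SE 0.32) was 0.62 without wild-type mouse 2 (edgeR adjusted p = 0.281). *Ddit4*, an inhibitor of mTORC1, and the collagen prolyl 4-hydroxylase subunits *P4ha1* and *P4ha2* overlapped, with log2 fold changes of 0.10, 0.09 and 0.00, and wild-type mouse 2 had the lowest value of each. *Ankrd37* was near the floor of detection, at 12 to 26 counts per library. Its groups overlapped in FPKM and not after TMM normalization, where *Ptpn6*+/mev was lower, with a log2 fold change of -0.50 (SE 0.34, edgeR adjusted p = 0.626). With each library left out in turn that value lay between -0.64 and -0.26.

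Isozymes of glycolysis differ between nephron segments, so the share of 1 isozyme in the summed FPKM of its family was computed for 7 families. These families were chosen after the values were seen, so the shares are a description. The exact permutation test, two-sided, that was run on each share cannot go below 0.1 with 3 mice per group, and nothing is drawn from it. *Pkm* made up 88.6%, 85.5% and 89.9% of pyruvate kinase transcripts in *Ptpn6*+/mev and 79.0%, 72.3% and 75.7% in wild-type mice, the rest being *Pklr*, the liver and proximal tubule form. The groups did not overlap. *Slc2a1* made up 68.9%, 58.5% and 68.8% of 4 glucose transporters against 46.3%, 57.3% and 58.0%, *Pfkp* 55.6%, 49.7% and 57.8% of phosphofructokinases against 44.5%, 49.5% and 43.1%, and *Pdk1* 12.7%, 15.3% and 14.6% of pyruvate dehydrogenase kinases against 11.4%, 7.12% and 10.01%. In these families the *Ptpn6*+/mev shares were also all above the wild-type shares, for *Slc2a1* and *Pfkp* by a narrow margin. *Pkm* and *Slc2a1* themselves had log2 fold changes of -0.17 and -0.11, against -1.39 for *Pklr*, -0.69 for *Slc2a2* and -1.25 for *Slc2a5*. Those of *Pfkp* and *Pdk1* were 0.23 and 0.25. *Pdk4* stood at 81.9 FPKM in wild-type mouse 2 and at 21.8 to 41.6 FPKM elsewhere. The shares of *Ldha*, *Hk2* and *Eno1* overlapped.

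**Figure D4:**
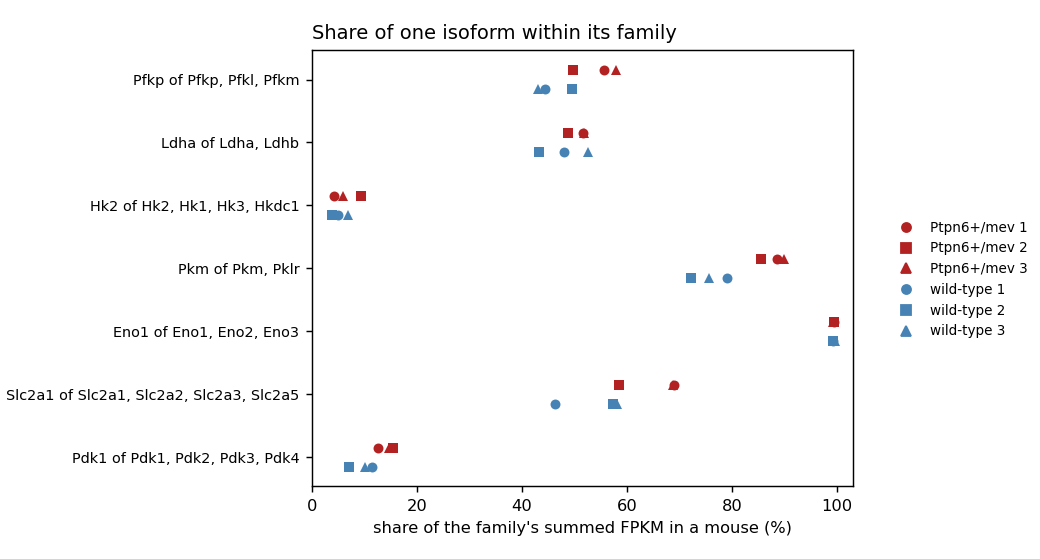
Share of 1 isozyme in the summed FPKM of its family, in percent, for each mouse and 7 families; red symbols are Ptpn6+/mev and blue symbols wild-type mice, with shapes for replicate numbers. Red symbols lie to the right of blue in the families of Pfkp, Pkm, Slc2a1 and Pdk1 and overlap in those of Ldha, Hk2 and Eno1.

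The wider glycolysis genes, a list of 24 that are not members, include *Pklr* and the other partners in those families that are not members. Of the 23 tested, 19 had a negative and 4 a positive log2 fold change, against 50.5% negative over all genes tested. At an unadjusted p under 0.05 there were 5, all lower, where 6.71% of all genes were lower, and none passed after adjustment. Without wild-type mouse 2 the list was 13 negative and 10 positive, with 4 lower and 1 higher at an unadjusted p under 0.05. With limma on log2(FPKM + 0.1) it held 14 negative and 9 positive, where the median of all genes was 0.08. *Pklr* had 32.7, 41.8 and 32.4 FPKM in *Ptpn6*+/mev and 78.1, 114 and 83.0 FPKM in wild-type mice, well apart, with a log2 fold change of -1.39 (SE 0.22, edgeR adjusted p = 0.0685, and 0.0195 without wild-type mouse 2). *Slc2a5*, the fructose transporter, had a log2 fold change of -1.25 (edgeR adjusted p = 0.0943, and 0.0383 without that mouse). *Slc2a2*, the glucose transporter GLUT2, had -0.69, *Pdk2* -0.32 and *Adpgk*, an ADP-dependent glucokinase, -0.31 (edgeR adjusted p = 0.176, 0.251 and 0.402). *Pklr*, *Slc2a5* and *Slc2a2* are known from the proximal tubule, whose markers without *Kap* summed to 582 to 737 FPKM in *Ptpn6*+/mev and 786 to 1000.2 FPKM in wild-type mice, and the part of this in their values was not tested. DESeq2 called all of these 3, with a background of 3.04% of genes, and so did the exact test of edgeR, with 2.99%.

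Of the wider hypoxia genes, 35 were tested, 16 with a positive and 19 with a negative log2 fold change, and 3 had an unadjusted p under 0.05, all lower. Without wild-type mouse 2 the split was again 16 and 19, with 2 higher and 6 lower at an unadjusted p under 0.05. *Arnt2*, a partner of the HIF alpha subunits, had 16.4, 16.6 and 16.3 FPKM in *Ptpn6*+/mev and 22.5, 24.2 and 24.6 FPKM in wild-type mice. The replicates lay close together and the groups far apart, with a log2 fold change of -0.60 (SE 0.09) and an edgeR adjusted p of 0.0685, or 0.0193 without wild-type mouse 2. *Hmox1*, heme oxygenase 1, had 409, 351 and 361 FPKM against 496, 466 and 552 FPKM, a log2 fold change of -0.50 (SE 0.09) and an edgeR adjusted p of 0.0873, or 0.0303 without that mouse. *Ak4*, a mitochondrial adenylate kinase, had -0.75 (SE 0.20, edgeR adjusted p = 0.176, and 0.116 without that mouse). Its FPKM values overlapped, at 39.0 to 54.7 in *Ptpn6*+/mev and 53.4 to 92.3 in wild-type mice. These 3 genes passed the adjusted threshold with DESeq2 and with the exact test of edgeR. By the KEGG pathways in the deposited table, 38 tested genes besides the members belong to glycolysis and gluconeogenesis. Of these, 13 were lower and 0 higher at an unadjusted p under 0.05, with a median log2 fold change of -0.17. HIF-1 signaling holds 75 such genes, with 4 lower and 6 higher and a median of 0.05. Only members were taken out, so genes of the wider lists can be counted again in these sets. Over all genes tested 6.71% were lower and 5.53% higher at this threshold, and none of either set passed after adjustment. The markers of proximal tubule, with 9 of 10 negative and 6 lower at this threshold, had the same direction as the glycolysis and gluconeogenesis set, and their part in its counts was not tested.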

How the data were processed

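Kidney mRNA of 6 mice was analysed, 1 library per mouse. Per the labels and the submitters' processing notes, which name Bowtie2, TopHat2 2.0.3.12, Cufflinks, RSEM and GRCm38.p5, the authors aligned the reads and deposited 1 table of estimated counts and FPKM values. The expected counts the authors deposited need not be whole (1744 genes have fractional counts) and were rounded here. The FPKM values deposited by the authors were used for levels. Columns named HE were taken as the *Ptpn6*+/mev libraries, the only genotype besides wild-type.

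Differences were tested with edgeR 4.0.16 in R 4.3.3 (filterByExpr, TMM, quasi-likelihood F test, Benjamini-Hochberg adjustment over all 13036 genes tested, FDR under 0.05); SE and 95% intervals come from this fit and are not adjusted. The procedure was tested on simulated data with planted changes larger than that of any member. That test does not cover differences as small as those of the members. Each mouse is a biological replicate. Depth was 10271590 to 12361745 counts per library, which limits precision mainly for genes with few counts. Positions are from GENCODE on GRCm38. The 15 alternatives were DESeq2 size factors, upper quartile normalization, DESeq2 1.42.0, edgeR's exact test, limma 3.58.1 on log2(FPKM + 1) and log2(FPKM + 0.1), no count filter, a floor of 10 counts per library, a replicate block, and 6 fits that each omit 1 library.

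Members with an unadjusted p under 0.05 or with FPKM groups that do not overlap were to be given value by value and the others by range and count, with the most abundant of each role as example. Values by mouse were also given for *Hif1a*, *Pfkm*, *Aldoc*, *Ldha*, *Ldhb*, *Pkm*, *Bnip3l* and *Adm*, chosen after they were seen. The members and lists were chosen with earlier results of these data known. Of the wider hypoxia list, 38 symbols include an older and a newer name of 1 gene. In the wider glycolysis list, 1 gene is not reported here. Isozyme shares and overlaps were computed with Python 3.11.15, and figures with matplotlib 3.10.9.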

Additional observations from a re-analysis of the deposited data

How the results depend on the processing

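None of the 36 members passed the adjusted threshold under any alternative apart from DESeq2, which called 2, *Eno1* and *Vegfa*. The number of genes called, 18, was 388 with DESeq2, 390 with edgeR's exact test, 52 without a filter, and 1 to 231 with each library left out, 231 being without wild-type mouse 2. Samples with the same replicate number did not deviate together (correlations -0.144, -0.184 and -0.130, against -0.010 to 0.158 between different numbers). The main fit used no pairing, but deviations from means of 3 mice cannot tell whether mice were paired in some other way, such as by litter. With a replicate block 1 gene and 0 members were called, and the lowest edgeR adjusted p of a member was 0.289. On log2 FPKM with limma, where all genes shift by 0.06 (pseudocount 1) or 0.08 (pseudocount 0.1), the medians of the role groups were 0.071 and 0.077 for HIF and sensors, -0.0024 with either pseudocount for enzymes, and 0.165 and 0.17 for other targets. With each library left out they were -0.072 to 0.0534, -0.110 to -0.0159, and -0.0753 to 0.0848, and -0.111 to 0.0874 for transport and flux switches. Of the members, 18 kept their sign under all alternatives and 18 did not, none of which passed the test. Apart from left-out libraries, the sign turned for *Pfkfb4* (0.00322 with upper quartile normalization, 0.0509 and 0.0623 with limma), *Aldoc* (-0.00307 with DESeq2, -0.00248 with the exact test), *Gpi1* (0.0961 and 0.0965 with limma), *Aldoa* (0.0193 with either pseudocount) and *Pgk1* (0.0364 and 0.0365 with limma). Over the fits that omit 1 library, values ran from -0.452 to 0.0829 for *Hif1a*, -0.072 to 0.0681 for *Epas1*, -0.0399 to 0.0534 for *Vhl*, -0.167 to 0.0584 for *Hk1*, -0.0353 to 0.015 for *Gpi1*, -0.239 to 0.621 for *Aldoc*, -0.0134 to 0.147 for *Gapdh*, -0.0641 to 0.0232 for *Pgk1*, -0.217 to 0.0293 for *Slc2a1*, -0.155 to 0.342 for *Slc16a3*, -0.117 to 0.135 for *Pfkfb4*, -0.0325 to 0.258 for *Ndrg1*, -0.0715 to 0.617 for *Adm*, -0.108 to 0.266 for *P4ha1*, -0.189 to 0.14 for *P4ha2*, -0.043 to 0.263 for *Ddit4* and -0.0256 to 0.0808 for *Higd1a*. The cause of these turns was not tested.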
